A study of Mus musculus with 15 samples.

Results

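The interferon-stimulated genes Ifit1, Ifit3, Irf7, Irf9, Stat2, Bst2, Usp18, Rtp4 and Xaf1 were followed in mouse cerebellum. They are 9 of the 24420 gene symbols in the count table, were taken by symbol, and all 9 were among the 16808 genes with enough counts to be tested. RNA sequencing covered 15 cerebellar libraries in 3 groups of 5. The 82Q_M120A group carried Atxn1[82Q] together with CalphaLoxM120A on a mixed C57BL/6J and FVB/nJ background and was 8 weeks old. The 82Q group carried Atxn1[82Q] alone on FVB/nJ, and the WT group was wild type on FVB/nJ, both 9 weeks old. Atxn1[82Q] is an ataxin-1 allele with an expanded polyglutamine tract, used as a model of spinocerebellar ataxia, and the series addresses phosphorylation of ataxin-1 by protein kinase A in Purkinje cells. The labels call the replicates neither separate animals nor separate preparations, so p-values measure the spread between libraries. Which promoter drives either allele, and whether a Cre line was used, is not stated in the labels. No group carried the kinase allele alone, and strain background and age changed with it, so in every comparison with 82Q_M120A the allele, the strain and the week of age cannot be told apart. Libraries are named by their group and column order, which carries no pairing.

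Type I interferons bind the receptor formed by Ifnar1 and Ifnar2, whose kinases Jak1 and Tyk2 phosphorylate STAT proteins. Phosphorylated STAT2 joins IRF9 in a complex that enters the nucleus and binds the interferon-stimulated response element, a DNA motif near the start of many target genes. The products of those genes restrict viruses, amplify the signal or switch it off. In the brain, microglia, astrocytes, endothelial cells and neurons can all respond, and basal levels of most of these transcripts are low.

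The core of the response element was searched for on both strands as GAAA, any 2 bases, and GAAA again, in the 300 bases that run from 250 before to 50 after each annotated start (RefSeq, GRCm38.p6). Of the 9 genes, 7 had a window, and 4 of those 7 held at least 1 match (57.1%), against 1079 of all 27025 genes with a window (3.99%). At least 2 matches were found in 3 of the 7, and in 72 of all genes with a window (0.266%). The 4 windows are shown because they carry the sequence the pathway is named for, with every matching base in capitals. They are from the reference assembly and were not read from these mice. The Ifit1 window is chr19:34640639-34640938 on the plus strand, the Ifit3 window chr19:34583279-34583578 on the plus strand, the Stat2 window chr10:128270248-128270547 on the plus strand, and the Bst2 window chr8:71537423-71537722 on the minus strand.
Ifit1: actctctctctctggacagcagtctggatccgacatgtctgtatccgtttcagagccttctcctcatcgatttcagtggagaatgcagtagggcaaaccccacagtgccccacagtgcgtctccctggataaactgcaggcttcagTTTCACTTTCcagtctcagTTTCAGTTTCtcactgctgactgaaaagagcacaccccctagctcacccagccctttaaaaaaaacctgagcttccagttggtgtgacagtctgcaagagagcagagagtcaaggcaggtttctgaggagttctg
Ifit3: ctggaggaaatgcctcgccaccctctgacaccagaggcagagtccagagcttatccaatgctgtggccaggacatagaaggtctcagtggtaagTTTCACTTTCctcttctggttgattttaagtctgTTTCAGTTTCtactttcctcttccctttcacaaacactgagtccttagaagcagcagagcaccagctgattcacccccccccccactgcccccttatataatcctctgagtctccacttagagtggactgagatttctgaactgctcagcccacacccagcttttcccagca
Stat2: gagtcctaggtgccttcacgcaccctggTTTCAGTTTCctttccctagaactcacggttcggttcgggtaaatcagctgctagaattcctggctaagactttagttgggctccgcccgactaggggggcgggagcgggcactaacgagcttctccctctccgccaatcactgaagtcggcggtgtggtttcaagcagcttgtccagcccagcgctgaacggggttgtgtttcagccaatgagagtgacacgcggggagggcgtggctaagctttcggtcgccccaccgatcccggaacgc
Bst2: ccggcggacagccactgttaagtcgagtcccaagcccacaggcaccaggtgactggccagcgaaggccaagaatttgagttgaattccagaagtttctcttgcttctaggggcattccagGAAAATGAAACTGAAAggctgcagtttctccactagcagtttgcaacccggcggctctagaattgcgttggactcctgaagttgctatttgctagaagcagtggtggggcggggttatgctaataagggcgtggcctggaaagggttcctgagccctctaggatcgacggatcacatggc
In Ifit1 the matches lie 104 to 95 and 85 to 76 bases before the start, and in Ifit3 they lie 156 to 147 and 122 to 113 bases before it. Both genes hold the same pair of matching sequences in the same order, read here from the strand opposite to the motif. Stat2 holds 1 match, 222 to 213 bases before the start. That start is the RefSeq one. The Stat2 window ends at 128270547, before the gene start at 128270559 in GENCODE M21. In Bst2 the 2 matches overlap, at 130 to 121 and 124 to 115 bases before the start. The windows of Irf7, Irf9 and Xaf1 held no match, and Usp18 and Rtp4 had no window in the table. A match describes these letters only.

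Values below are CPM, the read counts of a gene scaled to the library total with TMM factors, and fold changes and adjusted p-values are from edgeR's quasi-likelihood test over all 15 libraries, with Benjamini-Hochberg adjustment over the 16808 tested genes. A gene was called at an adjusted p under 0.05. In 82Q_M120A against WT, 7 of the 9 genes rose and the median log2 difference was 0.63, against 0.01 over all tested genes. In 82Q against WT, 1 of the 9 rose, Ifit3, and the median was 0.21, against 0.01 over all tested genes. In 82Q_M120A against 82Q, 4 of the 9 rose and the median was 0.43, against 0 over all tested genes. Many genes differed between these groups. Calls toward higher levels made up 18.6% of all tested genes in 82Q_M120A against WT, 8.63% in 82Q against WT and 10.3% in 82Q_M120A against 82Q. Calls toward lower levels made up 17.8%, 10.1% and 8.63% in the same order of comparisons. For the 9 genes edgeR called 0 lower in any of the 3 comparisons, with 0 lower at an unadjusted p under 0.05 and 0 by DESeq2 or limma-voom. All 5 libraries of one group lay above all 5 of the other, in 82Q_M120A against WT, for 12.4% of tested genes and for 4 of the 9. The same share was 6.81% in 82Q against WT, where it held for 0 of the 9, and 6.63% in 82Q_M120A against 82Q, where it held for 2 of the 9. The comparisons share libraries, so their counts are not independent.

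**Figure D1:**
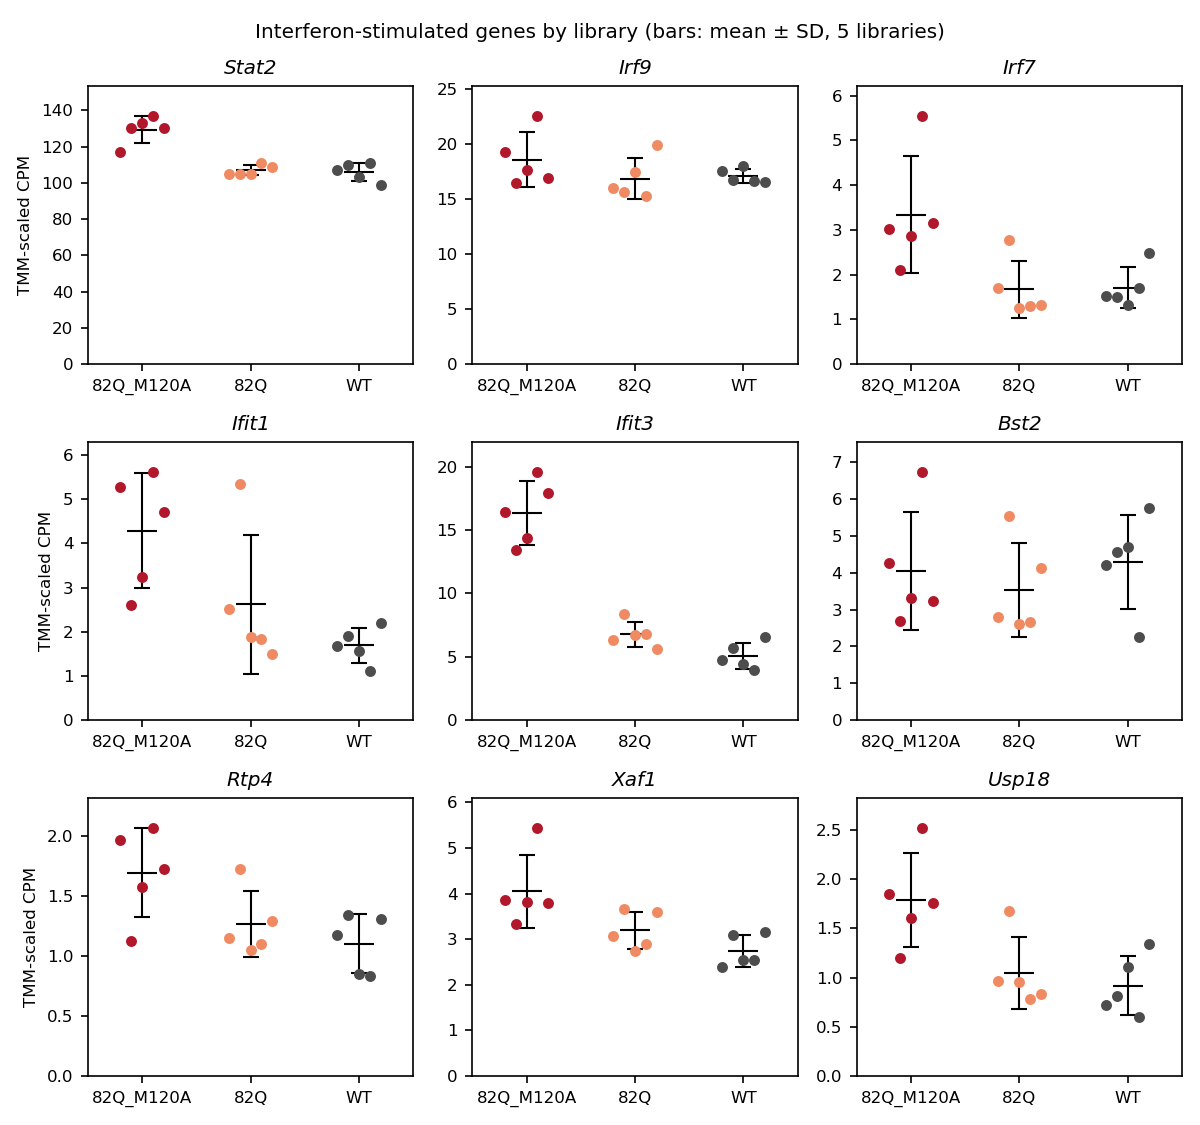
TMM-scaled CPM of each gene in every library, with 5 libraries in each group; points are libraries and bars are group means with SD. Ifit3 and Stat2 are the genes whose 5 82Q_M120A libraries all lie above both other groups, and Bst2 and Irf9 show broad overlap.

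Depth ran from 38322749 to 99422994 counts per library. The lowest count of any of the 9 genes in a library was 43, for which counting alone gives a coefficient of variation of 15.2%. Libraries of 1 group differed by more than counting noise, with chi-square values of 6.84 to 69 per degree of freedom, so no library was a copy of another. The cerebellar origin was checked with Purkinje cell markers, whose summed level was 3960 to 4940 CPM in 82Q_M120A, 4060 to 4930 CPM in 82Q and 9260 to 10600 CPM in WT. In bulk tissue, fewer cells of a type and less RNA per cell cannot be told apart. Some libraries stood apart in ways the groups do not give. Summed choroid plexus and meninges markers were 2340 CPM in 82Q_M120A-1 and 191 to 254 CPM in the other 4 libraries of 82Q_M120A. The same sum was 3140 and 2370 CPM in 82Q-2 and 82Q-5 against 227 to 545 CPM in the other 82Q libraries, and 197 CPM in WT-4 against 1860 to 2860 CPM in the other WT libraries.

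Stat2 (chr10:128270559-128292849, plus strand, mm10), the STAT subunit that carries IRF9 in the interferon complex, was the most abundant of the 9 and the least variable in both Atxn1[82Q] groups. Its levels were 117, 130, 133, 137 and 130 CPM in 82Q_M120A libraries 1 to 5, 105, 105, 105, 111 and 109 CPM in 82Q and 107, 110, 103, 111 and 98.6 CPM in WT. Every 82Q_M120A library lay above every library of the other 2 groups, and 82Q and WT overlapped. The means were 129 ± 7.42 CPM in 82Q_M120A, 107 ± 2.86 CPM in 82Q and 106 ± 5.20 CPM in WT (SD, n = 5 each). Stat2 rose 1.22-fold in 82Q_M120A against WT, a log2 difference of 0.29 ± 0.04 (SE, edgeR adjusted p = 2.49e-05). It rose 1.21-fold in 82Q_M120A against 82Q, a log2 difference of 0.27 ± 0.04 (edgeR adjusted p = 0.00014). The 82Q and WT groups differed by 0.02 ± 0.04 on the log2 scale (edgeR adjusted p = 0.815). The differences in Stat2 were small beside those of the other genes that rose, and so was the spread between its libraries, with coefficients of variation of 5.74% in 82Q_M120A, 2.67% in 82Q and 4.91% in WT.

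Irf9 (chr14:55603571-55610030, plus strand), the subunit that gives the complex its DNA specificity, did not move with Stat2. Its levels were 19.3, 16.5, 17.7, 22.6 and 16.9 CPM in 82Q_M120A, 16, 15.7, 17.5, 15.3 and 19.9 CPM in 82Q and 17.6, 16.8, 18, 16.7 and 16.6 CPM in WT. The 3 groups overlapped, and the libraries above the highest WT library were 82Q_M120A-1, 82Q_M120A-4 and 82Q-5. Irf9 had a log2 difference of 0.12 ± 0.08 in 82Q_M120A against WT (edgeR adjusted p = 0.28), -0.02 ± 0.08 in 82Q against WT (0.892) and 0.14 ± 0.08 in 82Q_M120A against 82Q (0.258). Of its exon bases, 2.28% overlap Rnf31 on the same strand.

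Irf7 (chr7:141262706-141266481, minus strand), an interferon-inducible factor that drives further interferon transcription, differed more in size. It stood at 3.02, 2.1, 2.87, 5.55 and 3.15 CPM in 82Q_M120A, at 1.7, 2.77, 1.26, 1.29 and 1.33 CPM in 82Q and at 1.53, 1.49, 1.32, 1.7 and 2.49 CPM in WT. All 82Q_M120A libraries but 82Q_M120A-2 exceeded all others, and 82Q_M120A-2 lay below 82Q-2 and WT-5. Irf7 averaged 3.34 ± 1.3 CPM in 82Q_M120A, 1.67 ± 0.639 CPM in 82Q and 1.71 ± 0.456 CPM in WT (SD, n = 5 each). It rose 1.99-fold in 82Q_M120A against WT (log2 0.99 ± 0.27, edgeR adjusted p = 0.00975) and 1.99-fold in 82Q_M120A against 82Q (log2 1.0 ± 0.27, edgeR adjusted p = 0.0168). In 82Q against WT the log2 difference was -0.01 ± 0.28 (edgeR adjusted p = 0.995), and its sign changed between scalings and when single libraries were left out.

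Among the effectors, Ifit3 (chr19:34583531-34588731, plus strand), which binds IFIT1 and stabilises its hold on foreign RNA, showed the widest separation. Its levels were 16.4, 13.4, 14.4, 19.6 and 17.9 CPM in 82Q_M120A, 6.35, 8.36, 6.69, 6.79 and 5.62 CPM in 82Q and 4.75, 5.68, 4.43, 3.93 and 6.52 CPM in WT. The lowest 82Q_M120A library was well above the highest library of either other group, and 82Q-5 and 82Q-1 fell within the WT range. The means were 16.3 ± 2.53 CPM in 82Q_M120A, 6.76 ± 1.01 CPM in 82Q and 5.06 ± 1.04 CPM in WT (SD, n = 5 each). Ifit3 rose 3.25-fold in 82Q_M120A against WT (log2 1.70 ± 0.14, edgeR adjusted p = 9.9e-08) and 2.41-fold in 82Q_M120A against 82Q (log2 1.27 ± 0.14, edgeR adjusted p = 7.64e-06). It also rose 1.35-fold in 82Q against WT (log2 0.43 ± 0.14, edgeR adjusted p = 0.043). That last call was lost when any of 82Q-1, 82Q-2, 82Q-3, 82Q-4, WT-1, WT-3 or WT-4 was left out, with adjusted p-values of 0.0122 to 0.105 over all alternatives.

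Ifit3 has a near copy, Ifit3b, and 51.2% of the 50-base stretches of its transcripts also occur in other genes' transcripts, so reads could be split between the pair. Ifit3b averaged 7.96 ± 1.31 CPM in 82Q_M120A, 5.9 ± 1.15 CPM in 82Q and 4.66 ± 1.0 CPM in WT (SD, n = 5 each). Its log2 difference was 0.78 ± 0.15 in 82Q_M120A against WT (edgeR adjusted p = 0.00074) and 0.43 in 82Q_M120A against 82Q (edgeR adjusted p = 0.0565). The sum of the pair was 20.2 to 29.7 CPM in 82Q_M120A, 10 to 15.9 CPM in 82Q and 8.22 to 12.9 CPM in WT. All 82Q_M120A sums exceeded all others. The sum does not depend on how counted shared reads were split between the 2 genes. It does depend on whether shared reads were counted, which was not given. The ratio of Ifit3 to Ifit3b was 1.94 to 2.36 in 82Q_M120A, 1.04 to 1.28 in 82Q and 0.916 to 1.44 in WT. Strain background changed with the allele, so the 2 cannot be told apart in this ratio.

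Ifit1 (chr19:34640871-34650009, plus strand), which binds RNA lacking the host cap modification, stood at 5.27, 2.61, 3.23, 5.62 and 4.71 CPM in 82Q_M120A, 2.52, 5.34, 1.89, 1.84 and 1.5 CPM in 82Q and 1.68, 1.91, 1.56, 1.11 and 2.19 CPM in WT. All 82Q_M120A libraries were above all WT libraries, whereas 82Q-2 lay between the highest 82Q_M120A libraries. Ifit1 rose 2.57-fold in 82Q_M120A against WT (log2 1.36 ± 0.34, edgeR adjusted p = 0.00584). Its log2 difference was 0.65 ± 0.34 in 82Q against WT (edgeR adjusted p = 0.215) and 0.71 ± 0.32 in 82Q_M120A against 82Q (edgeR adjusted p = 0.15). The coefficient of variation of Ifit1 was 30.5% in 82Q_M120A, 59.8% in 82Q and 23.8% in WT. Without 82Q-2 the 82Q mean was 1.94 CPM, against 2.62 ± 1.57 CPM with it. Ifit1 in 82Q_M120A against 82Q then passed the test at a log2 difference of 1.15 (edgeR adjusted p = 0.00334). That library was picked here for its high Ifit1 level, so this pass follows from the choice and is no separate evidence of a difference. Of the 50-base stretches of Ifit1, 7.13% occur in other genes, nearly all in Ifit1bl2.

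Xaf1 (chr11:72301629-72313733, plus strand), which binds the apoptosis inhibitor XIAP, stood at 3.85, 3.33, 3.82, 5.44 and 3.79 CPM in 82Q_M120A, 3.07, 3.66, 2.74, 2.9 and 3.59 CPM in 82Q and 2.39, 3.09, 2.55, 2.55 and 3.15 CPM in WT. Every 82Q_M120A library exceeded every WT library, and 82Q_M120A-2 lay within the 82Q range. Xaf1 rose 1.48-fold in 82Q_M120A against WT (log2 0.56 ± 0.13, edgeR adjusted p = 0.00223). The other differences did not pass, at log2 0.22 ± 0.13 in 82Q against WT (edgeR adjusted p = 0.262) and 0.34 ± 0.13 in 82Q_M120A against 82Q (edgeR adjusted p = 0.0683).

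Rtp4 (chr16:23520291-23614222, plus strand), a receptor-transporting protein induced by interferon, stood at 1.97, 1.13, 1.58, 2.07 and 1.73 CPM in 82Q_M120A, 1.15, 1.73, 1.05, 1.1 and 1.29 CPM in 82Q and 1.18, 1.34, 0.853, 0.836 and 1.31 CPM in WT. All 82Q_M120A libraries but 82Q_M120A-2 were above all WT libraries. Rtp4 rose 1.55-fold in 82Q_M120A against WT (log2 0.63 ± 0.19, edgeR adjusted p = 0.0128). It differed by 0.21 ± 0.19 in 82Q against WT (edgeR adjusted p = 0.497) and by 0.43 ± 0.18 in 82Q_M120A against 82Q (edgeR adjusted p = 0.115), both on the log2 scale. The predicted gene Gm45338 shares 13.9% of its exon bases on the same strand, so part of its counts could come from that gene.

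Usp18 (chr6:121245906-121270917, plus strand) removes ISG15 from proteins and blocks the type I receptor, which makes it the feedback inhibitor among the 9. Its levels were 1.85, 1.2, 1.6, 2.52 and 1.76 CPM in 82Q_M120A, 0.967, 1.68, 0.954, 0.787 and 0.834 CPM in 82Q and 0.725, 0.811, 1.11, 0.599 and 1.34 CPM in WT. 82Q_M120A-2 lay below WT-5, and the other 82Q_M120A libraries lay above all WT libraries. Usp18 rose 1.98-fold in 82Q_M120A against WT (log2 0.99 ± 0.25, edgeR adjusted p = 0.00485) and 1.70-fold in 82Q_M120A against 82Q (log2 0.77 ± 0.24, edgeR adjusted p = 0.0337). The second call was lost when any of 82Q-1, 82Q-3, 82Q-4, 82Q-5, 82Q_M120A-1, 82Q_M120A-4 or 82Q_M120A-5 was left out, with adjusted p-values of 0.0046 to 0.0887 over all alternatives. In 82Q against WT the log2 difference was 0.22 ± 0.25 (edgeR adjusted p = 0.611), and -0.03 without 82Q-2.

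Bst2 (chr8:71534255-71537456, minus strand), or tetherin, which holds budding virions at the cell surface, was the exception. Its levels were 4.27, 2.69, 3.32, 6.74 and 3.22 CPM in 82Q_M120A, 2.79, 5.53, 2.6, 2.67 and 4.13 CPM in 82Q and 4.21, 4.57, 4.71, 2.26 and 5.75 CPM in WT. The 3 groups overlapped over their whole range. Bst2 had a log2 difference of -0.08 ± 0.30 in 82Q_M120A against WT (edgeR adjusted p = 0.857), -0.27 ± 0.30 in 82Q against WT (0.595) and 0.19 ± 0.30 in 82Q_M120A against 82Q (0.71). Within each group its high libraries were those with high choroid plexus and meninges markers, namely 82Q_M120A-1, 82Q-2, 82Q-5 and all WT libraries but WT-4. The exception was 82Q_M120A-4, with the highest Bst2 level of all 15 libraries and a marker sum of only 191 CPM.

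**Figure D2:**
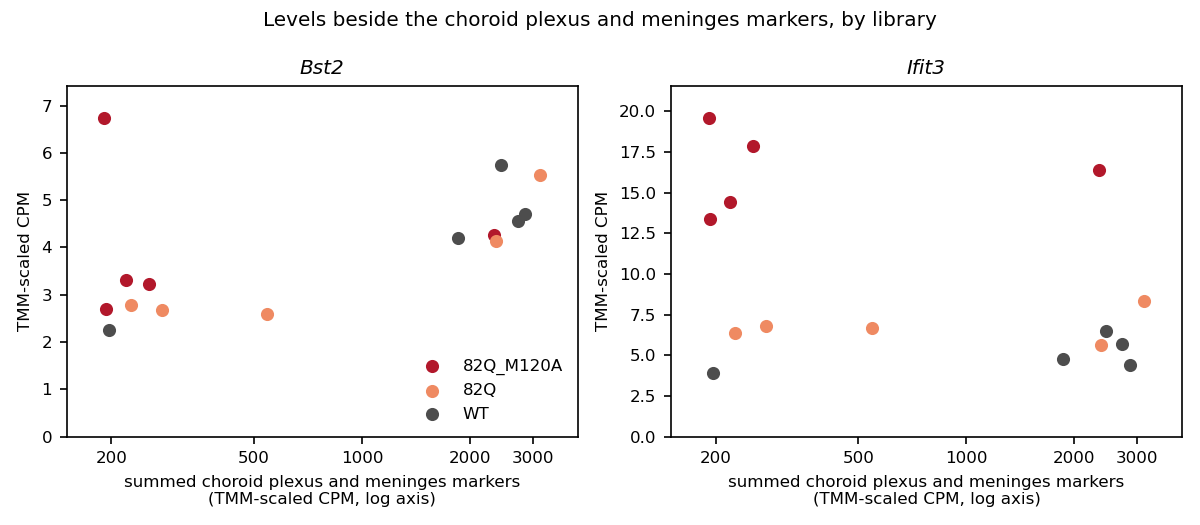
Levels of Bst2 (left) and Ifit3 (right) in TMM-scaled CPM against the summed choroid plexus and meninges markers on a log axis; each point is a library, coloured by group. Bst2 was 4.13 CPM or more in each library with a marker sum of 1860 CPM or more, whereas the Ifit3 levels of 82Q_M120A lay above those of 82Q and WT at low sums and, with 1 library, at high sums.

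A fit with the marker sum as a covariate, chosen after the data were seen, gave Bst2 a log2 difference of 0.38 in 82Q_M120A against WT (edgeR adjusted p = 0.337), opposite in sign to the fit without it. In that comparison the same fit gave Ifit3 1.81 (3.89e-07), Ifit1 1.75 (0.00129), Usp18 1.27 (0.00137), Irf7 1.08 (0.0178), Rtp4 0.88 (0.00144) and Stat2 0.24 (0.000272), the last smaller than the 0.29 without the covariate, as log2 differences with edgeR adjusted p-values in brackets. The count of the 9 genes that rose was 7 in 82Q_M120A against WT, 1 in 82Q against WT and 7 in 82Q_M120A against 82Q with the covariate. The 3 that joined in 82Q_M120A against 82Q were Ifit1 at 0.95 (0.041), Rtp4 at 0.56 (0.023) and Xaf1 at 0.39 (0.0477). In that comparison Stat2 was 0.24 (0.000211), against 0.27 without the covariate. The marker sum was partly confounded with group. It was 1860 to 2860 CPM in all WT libraries but WT-4, and 191 to 254 CPM in all 82Q_M120A libraries but 82Q_M120A-1. The fitted differences thus lean on few libraries, and the share of all tested genes called under this fit is not given.

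**Figure D3:**
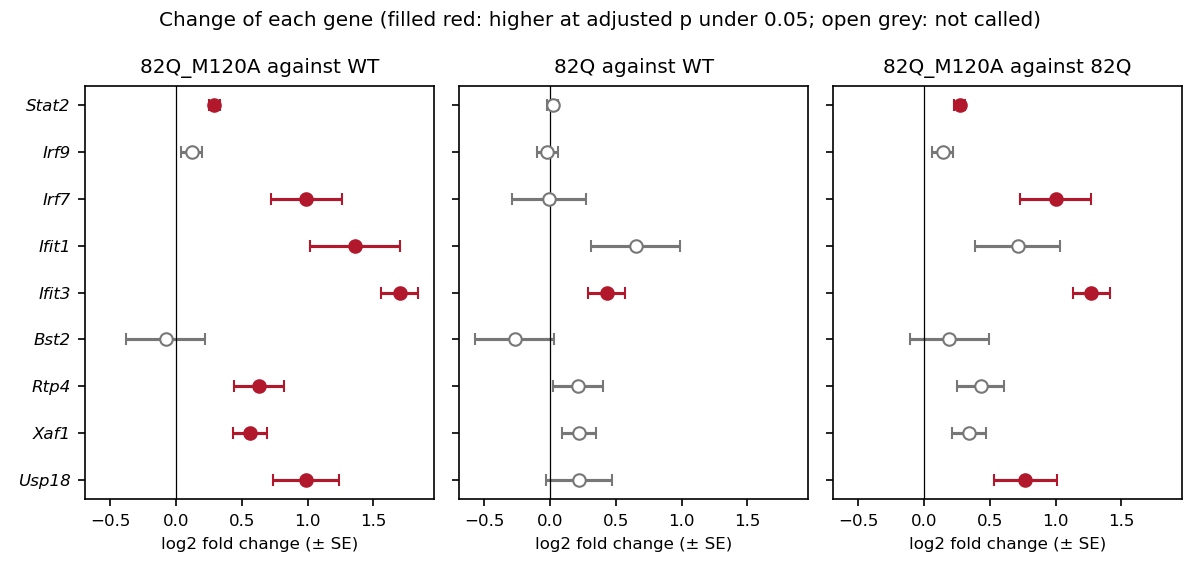
Log2 differences of the 9 genes with approximate SE bars in the 3 comparisons; filled points passed edgeR's quasi-likelihood test at an adjusted p under 0.05. Ifit3 had the largest difference in 82Q_M120A against WT (1.70) and was the gene called in 82Q against WT.

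Per kilobase of exon, which allows levels of different genes to be set side by side, the order of the group means was led by Stat2 in all groups, at 21.8 CPM per kb in 82Q_M120A, 18.1 in 82Q and 17.9 in WT. Ifit3 was next in 82Q_M120A at 9.34 CPM per kb, against 3.87 in 82Q and 2.9 in WT. In 82Q, Bst2 at 3.92 CPM per kb stood just above Ifit3, and in WT both Bst2 at 4.76 and Irf9 at 3.17 CPM per kb stood above it. The gaps between Bst2 and Ifit3 in 82Q and between Irf9 and Ifit3 in WT were smaller than the spread of these genes between libraries. Usp18 was last in every group, at 0.642 CPM per kb in 82Q_M120A, 0.376 in 82Q and 0.329 in WT.

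Within groups the genes varied together. In 82Q_M120A, library 4 was the highest for 9 of the 9 genes and library 2 the lowest for 8, the exception being Stat2. In 82Q, library 2 was the highest for 7 of the 9, all but Stat2 and Irf9. In WT, library 5 was the highest for 6 and library 4 the lowest for 5. The mean log2 deviation of the 9 genes from their group mean was 0.44 in 82Q_M120A-4, -0.39 in 82Q_M120A-2, 0.47 in 82Q-2, 0.31 in WT-5 and -0.30 in WT-4. As a description over the 15 libraries, the deviation of each gene followed the mean deviation of the other 8 with a Pearson correlation of 0.81 to 0.87 for Ifit1, Ifit3, Irf7, Bst2, Usp18, Rtp4 and Xaf1. For Irf9 the value was 0.27 and for Stat2 -0.25, although both were highest in 82Q_M120A-4 within their group. These points share library, depth and dissection.

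**Figure D4:**
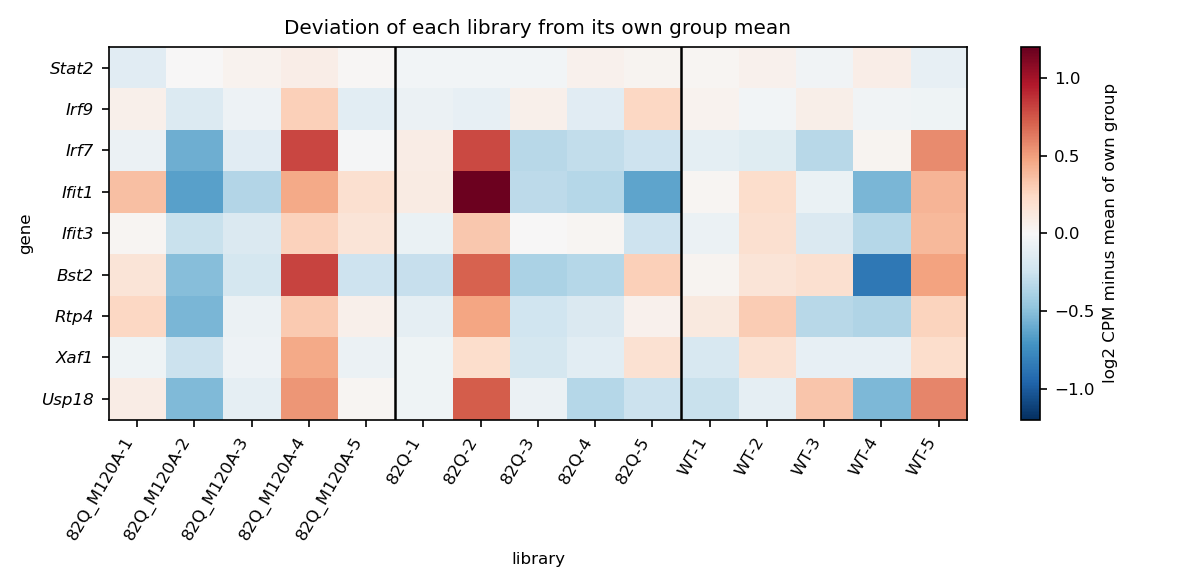
Log2 deviation of each gene from its group mean in each of the 15 libraries. The libraries 82Q_M120A-4 and 82Q-2 are high and 82Q_M120A-2 low for most genes, and Stat2 and Irf9 vary less than the others.

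In 82Q and 82Q_M120A the high libraries were also high for other interferon genes. Of 127 tested genes from the 7 interferon lists, 82Q-2 was the highest 82Q library for 67 (52.8%), against 22.9% of all tested genes. In 82Q_M120A, library 4 was the highest for 57 of the 127 (44.9%, against 21.2% of all tested genes) and library 2 the lowest for 61 (48%, against 19.2%). WT differed: library 5 was the highest for 40 (31.5%), near the 27% of all tested genes. Library 2 of WT was the highest for 41 (32.3%, against 18.1%), and library 4 the lowest for 44 (34.6%, against 24.1%). Summed microglial markers were 224 CPM in 82Q_M120A-4, the lowest of its group, and 270 CPM in 82Q_M120A-2, the highest. In the other groups they were 246 CPM in 82Q-2, level with 82Q-4 as the highest of 82Q, 156 CPM in WT-5 and 144 CPM in WT-4, the lowest of WT. The part of microglia in this order was not tested. In 82Q-2, Ifit1 was 2.76 times, Irf7 1.99 times and Usp18 1.9 times the mean of the other 82Q libraries. Bst2 was 1.82 times and Rtp4 1.51 times that mean. Stat2 at 0.976 times and Irf9 at 0.912 times were not raised in 82Q-2.

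Among 14005 other genes that averaged 1 CPM or more, those whose within-group deviations over the 15 libraries were most like the mean of the 9 were Mx2 (Pearson correlation 0.95), Oasl2 (0.91), Isg15 (0.89), Nbas (0.87), Oas2 (0.86), Parp14 (0.86), Rpn2 (0.85), Igtp (0.85), Tap2 (0.84) and Ankrd45 (0.84). Of these 10, 7 were in the interferon lists, which held 100 of the candidates. The median correlation was 0.33 over those 100 and -0.01 over all candidates. Likeness between libraries did not mean a difference between groups: Mx2, an antiviral GTPase, averaged 1.2 ± 0.312 CPM in 82Q_M120A, 0.994 ± 0.314 CPM in 82Q and 0.886 ± 0.226 CPM in WT (SD, n = 5 each), a log2 difference of 0.46 ± 0.22 in 82Q_M120A against WT (edgeR adjusted p = 0.112). Oasl2, an oligoadenylate synthetase-like gene, rose in 82Q_M120A, with means of 3.92 CPM in 82Q_M120A, 2.13 CPM in 82Q and 1.8 CPM in WT and a log2 difference of 1.15 against WT (edgeR adjusted p = 0.00159).

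The rest of the pathway was read from fixed lists of 156 genes, of which 127 were tested. Of those 127, 67 rose and 5 fell in 82Q_M120A against WT, 18 rose and 3 fell in 82Q against WT, and 33 rose and 6 fell in 82Q_M120A against 82Q. Over all tested genes, 18.6%, 8.63% and 10.3% rose in these comparisons, and 17.8%, 10.1% and 8.63% fell. The ligands were at the limit of the depth: none of 21 interferon genes could be tested, 11 had 0 counts in every library, and the highest count in a library was 6, for Ifnz. Ifnb1 had 1 count in all 82Q_M120A libraries together and 0 in 82Q and WT, and Ifng had 0 counts in 82Q_M120A, 3 in 82Q and 2 in WT. Ifnz had 16 counts in 82Q_M120A, 17 in 82Q and 15 in WT over the 5 libraries of each group, too few at this depth to show a difference.

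Of 10 receptors, kinases and STAT proteins, 1 was higher and 2 were lower in 82Q_M120A against WT, with a median log2 difference of -0.01. These counts were near the shares over all tested genes, 18.6% higher and 17.8% lower. In 82Q against WT 1 fell (median 0.04), and in 82Q_M120A against 82Q 2 rose and 1 fell (median 0). Ifngr2, a subunit of the interferon gamma receptor, fell by 0.27 in 82Q_M120A against WT and by 0.38 in 82Q against WT on the log2 scale (edgeR adjusted p = 1.19e-05 and 3.42e-07). Tyk2 fell by 0.14 on the log2 scale in 82Q_M120A against WT (edgeR adjusted p = 0.0121).

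Of 19 nucleic acid sensors, adaptors and kinases, 12 rose and 1 fell in 82Q_M120A against WT (median log2 0.29), 7 rose in 82Q against WT (median 0.14), and 4 rose and 1 fell in 82Q_M120A against 82Q (median 0.05). The shares of all tested genes that rose were 18.6%, 8.63% and 10.3% in the same order. Ifih1, the cytoplasmic double-stranded RNA sensor MDA5, averaged 4.75 CPM in 82Q_M120A, 2.71 CPM in 82Q and 2.27 CPM in WT, a log2 difference of 1.07 in 82Q_M120A against WT (edgeR adjusted p = 1.34e-06) and 0.81 in 82Q_M120A against 82Q (7.93e-05). Trex1, a DNA exonuclease that removes cytoplasmic DNA, averaged 16 CPM in 82Q_M120A, 8.65 CPM in 82Q and 8.69 CPM in WT, and rose by 0.88 against WT and 0.89 against 82Q on the log2 scale (edgeR adjusted p = 6.6e-08 and 2.42e-07). Tlr7, an endosomal RNA sensor, had another pattern, at 2.15 CPM in 82Q_M120A, 2.18 CPM in 82Q and 0.977 CPM in WT, and rose in both groups against WT by 1.14 and 1.17 on the log2 scale (edgeR adjusted p = 1.78e-07 and 2.35e-07). The others that rose in 82Q against WT included Unc93b1, Tlr9 and Tlr3 of endosomal sensing, at log2 differences of 0.50, 0.91 and 0.33 (edgeR adjusted p = 0.000285, 0.00141 and 0.000128), and Mb21d1 and Tmem173 of cytosolic DNA sensing, named after their values were seen, at 0.41 and 0.32 (edgeR adjusted p = 0.0109 and 0.0354). The kinase gene Tbk1 was lower in 82Q_M120A than in 82Q by a log2 difference of -0.28 (edgeR adjusted p = 3.26e-06).

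The list of 8 other interferon regulatory factors includes Irf2bp2, whose product binds IRF2. Of these 8, 3 rose in 82Q_M120A against WT (median log2 0.10) and 2 rose in 82Q against WT (median 0.16). In 82Q_M120A against 82Q the median was -0.02 and 1 fell, Irf4, at a log2 difference of -0.59 (edgeR adjusted p = 0.0244). Irf8, a factor of microglia and other myeloid cells, averaged 3.3 CPM in 82Q_M120A, 3.07 CPM in 82Q and 1.96 CPM in WT, a log2 difference of 0.76 in 82Q_M120A against WT (edgeR adjusted p = 8.47e-06) and 0.66 in 82Q against WT (8.55e-05). The list of 10 negative regulators also holds Isg15 and genes of its conjugation to proteins. Of these 10, 5 rose and 1 fell in 82Q_M120A against WT (median 0.14), 2 rose in 82Q against WT (median 0.08) and 1 rose in 82Q_M120A against 82Q (median 0.11). Both lists are short, and over all tested genes 18.6%, 8.63% and 10.3% rose in the same order of comparisons. Socs3, a feedback inhibitor of JAK kinases, rose by a log2 difference of 0.91 in 82Q_M120A against WT (edgeR adjusted p = 0.000128) and 0.53 against 82Q (edgeR adjusted p = 0.0177). Isg15, the ubiquitin-like protein that USP18 removes, averaged 2.12 CPM in 82Q_M120A, 1.47 CPM in 82Q and 1.44 CPM in WT, a log2 difference of 0.57 in 82Q_M120A against WT (edgeR adjusted p = 0.0281).

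Of 54 tested effectors outside the 9, 33 rose and 1 fell in 82Q_M120A against WT (median log2 0.55), 6 rose and 2 fell in 82Q against WT (median 0.21), and 18 rose and 1 fell in 82Q_M120A against 82Q (median 0.28). For these and the genes listed next, the shares of all tested genes that rose were 18.6%, 8.63% and 10.3%. Pml, a nuclear body scaffold, averaged 18.1 CPM in 82Q_M120A, 10.3 CPM in 82Q and 10.6 CPM in WT, a log2 difference of 0.78 in 82Q_M120A against WT (edgeR adjusted p = 8.68e-09) and 0.82 against 82Q (2.25e-08). Nmi, which binds STAT proteins, rose by 0.94 in 82Q_M120A against WT and by 0.33 in 82Q against WT on the log2 scale (edgeR adjusted p = 8.48e-08 and 0.0105). Mndal, a member of the Ifi200 family of near copies and therefore uncertain, averaged 1.93 ± 1.16 CPM in 82Q_M120A, 0.0362 CPM in 82Q and 0.0334 CPM in WT (n = 5 each). It is nearly absent from both FVB/nJ groups, and strain and allele cannot be told apart in it. Of 26 interferon gamma inducible GTPases and antigen processing genes, 13 rose in 82Q_M120A against WT (median 0.37), 1 rose in 82Q against WT (median 0.07), and 8 rose and 2 fell in 82Q_M120A against 82Q (median 0.31). The one that rose in 82Q was B2m, the shared light chain of class I molecules, at 86 CPM in 82Q_M120A, 62.8 CPM in 82Q and 52.5 CPM in WT, with log2 differences of 0.71 in 82Q_M120A against WT and 0.26 in 82Q against WT (edgeR adjusted p = 5.02e-08 and 0.00468).

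**Figure D5:**
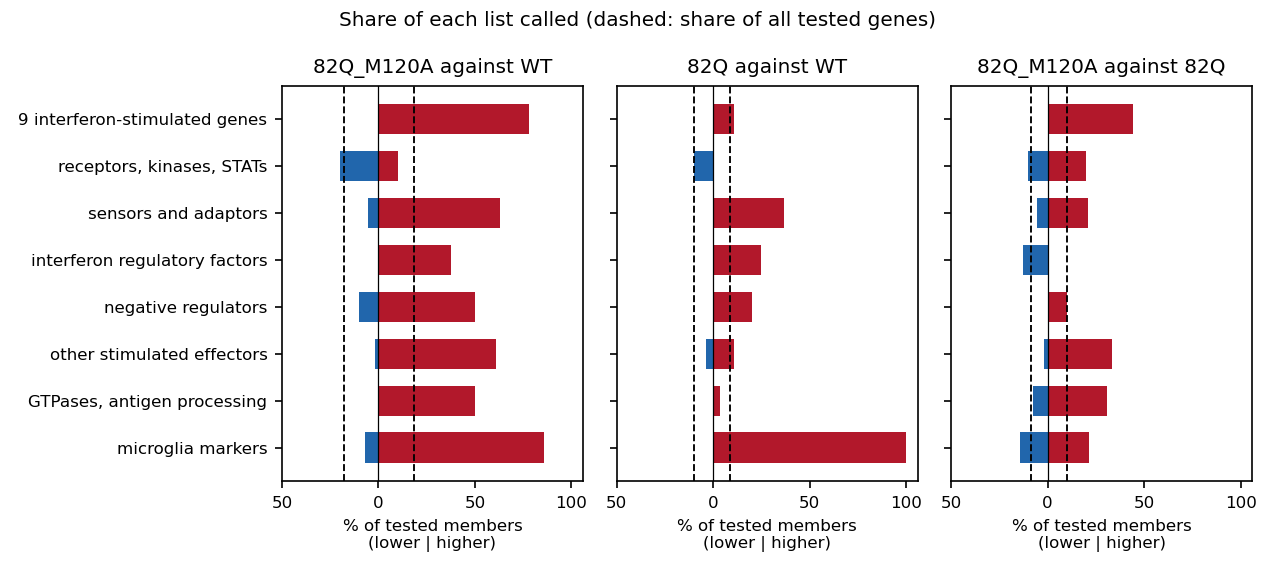
Percent of tested genes of each list that were higher or lower by edgeR's quasi-likelihood test in the 3 comparisons, beside all tested genes. In 82Q_M120A against WT, 7 of the 9 genes and 33 of 54 other effectors were higher, against 18.6% of all tested genes.

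Markers of other cell types were read beside these values. Over all tested genes, 18.6% rose and 17.8% fell in 82Q_M120A against WT. In 82Q against WT 8.63% rose and 10.1% fell, and in 82Q_M120A against 82Q 10.3% rose and 8.63% fell. Of 14 microglia markers, 12 rose and 1 fell in 82Q_M120A against WT, all 14 rose in 82Q against WT, and 3 rose and 2 fell in 82Q_M120A against 82Q. Their summed level was 224 to 270 CPM in 82Q_M120A, 231 to 246 CPM in 82Q and 144 to 162 CPM in WT. The microglial sum was thus raised in both Atxn1[82Q] groups, whereas of the 9 interferon-stimulated genes 7 passed in 82Q_M120A and 1 in 82Q against WT, and its part in either result was not tested. Perivascular macrophage markers summed to 12.6 to 14.1 CPM in 82Q_M120A, 14.2 to 19.3 CPM in 82Q and 11.9 to 17 CPM in WT. Markers of T, B and NK cells summed to 1.17 to 1.43 CPM in 82Q_M120A, 1.2 to 1.45 CPM in 82Q and 0.802 to 1.52 CPM in WT, and those of monocytes and neutrophils to 1.04 to 1.88, 1.25 to 4.16 and 0.829 to 1.48 CPM in the same order. The 4.16 CPM was in 82Q-5. Ccr2 was the 1 of 3 tested monocyte and neutrophil markers that rose. It averaged 0.539 CPM in 82Q_M120A, 0.287 CPM in 82Q and 0.305 CPM in WT. Its log2 differences in 82Q_M120A were 0.76 against WT and 0.90 against 82Q (edgeR adjusted p = 0.0109 and 0.00711). Endothelial and pericyte markers summed to 278 to 316 CPM in 82Q_M120A, 235 to 261 CPM in 82Q and 233 to 258 CPM in WT. Among these 9, 4 rose in 82Q_M120A against WT, 2 in 82Q against WT and 2 in 82Q_M120A against 82Q. Slco1a4 averaged 75, 46.3 and 44.7 CPM and Rgs5 36.8, 25.4 and 24.3 CPM in 82Q_M120A, 82Q and WT. Pecam1, Cldn5, Flt1, Cdh5 and Ly6c1 were not called in 82Q_M120A against WT. The part of these cells in the differences of 82Q_M120A was not tested. Of 6 oligodendrocyte markers, 6 rose in 82Q_M120A against WT, 5 rose in 82Q against WT and 2 rose in 82Q_M120A against 82Q, and their sum was 6740 to 7360 CPM in 82Q_M120A, 5990 to 7260 CPM in 82Q and 4870 to 5890 CPM in WT. Of 9 astrocyte and Bergmann glia markers, 2 rose and 2 fell in 82Q_M120A against WT, 3 rose and 2 fell in 82Q against WT, and 2 fell in 82Q_M120A against 82Q. Their sum was 3650 to 4150 CPM in 82Q_M120A, 3830 to 4080 CPM in 82Q and 3640 to 3880 CPM in WT. Among them Gfap, a marker of reactive astrocytes, averaged 411 ± 87.6 CPM in 82Q_M120A, 424 ± 18.2 CPM in 82Q and 157 ± 15.3 CPM in WT (SD, n = 5 each). Its log2 difference was 1.39 in 82Q_M120A against WT (edgeR adjusted p = 4.44e-07). Hopx, on the same list, went the other way, at -0.51 in 82Q_M120A against WT and -0.38 in 82Q against WT (edgeR adjusted p = 3.59e-08 and 2.21e-06). The part of either cell type in the differences of the 9 genes was not tested. No marker of these lists was at 0 in every library. Bst2 is itself one of the plasmacytoid dendritic cell markers, whose sum was 298 to 323 CPM in 82Q_M120A, 297 to 329 CPM in 82Q and 271 to 297 CPM in WT. That sum was nearly all Tcf4, which averaged 296 CPM in 82Q_M120A, 304 CPM in 82Q and 277 CPM in WT. It therefore says little of the other markers on this list. Among the 5 tested, 2 rose in 82Q_M120A against WT, 2 in 82Q against WT and 1 in 82Q_M120A against 82Q.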

How the data were processed

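Cerebellar RNA was measured by sequencing of TruSeq libraries, per the labels' protocols. The authors deposited 1 table of raw read counts per gene symbol for 15 libraries. Per the submitters' processing notes, the tools were CASAVA 1.8, HISAT2 2.0.1, featureCounts from Subread, R 3.3.3 and DESeq2 1.14.1, with genome build mm10. Annotation, strand setting and handling of multimapping reads were not given in the sources used here, so antisense and overlapping genes cannot be told apart and near copies are uncertain. Depth was 38322749 to 99422994 counts per library.

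The deposited counts were analysed with edgeR 4.0.16 in R 4.3.3: low-count filter (filterByExpr, 16808 of 24420 genes kept), TMM factors, a robust quasi-likelihood model of group over the 15 libraries, two-sided tests and Benjamini-Hochberg adjustment over all tested genes, called at 0.05. SE values are the log2 difference divided by the root of F and are approximate. Log2 CPM for deviations used a prior count of 2. The steps were tested on simulated data. Alternatives were DESeq2 1.42.0, limma-voom 3.58.1, other scalings, filters and thresholds, a fit of only the groups compared, and each library left out.

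The 9 genes and all lists were chosen with earlier results of these data known. Named genes were the 9, then for each list up to 4 called genes with the smallest adjusted p per comparison, and the 10 most alike over libraries; Ifit3b, Ifit1bl2, Gm45338 and Rnf31 were named for shared sequence. Gene positions are GENCODE M21 on mm10, and promoter windows are RefSeq GRCm38.p6. One gene that this rule names is not reported here.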

Additional observations from a re-analysis of the deposited data

Results flagged for a closer look

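In groups of 5 libraries, a library was singled out where its gap to the nearest other exceeded 0.71 of the group's range. Of the 27 groups of values for the 9 genes, 4 met this, and chance gives about 1 in 20. Ifit1 stood at 5.34 CPM in 82Q-2, and the next 82Q library was at 2.52 CPM. Irf7 stood at 2.77 CPM in 82Q-2, and the next was at 1.7 CPM. Usp18 stood at 1.68 CPM in 82Q-2, and the next was at 0.967 CPM. Xaf1 stood at 5.44 CPM in 82Q_M120A-4, and the next library of 82Q_M120A was at 3.85 CPM. The 3 values in 82Q-2 belong to 1 library and are not separate events.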

How the results depend on the processing

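In 82Q_M120A against WT the count of the 9 genes that rose was 6 to 7 under all alternatives and 7 with any library left out. In 82Q against WT it was 0 without the low-count filter and at an adjusted p under 0.01, and 0 to 1 with single libraries left out. In 82Q_M120A against 82Q it was 2 at an adjusted p under 0.01. It was 3 to 7 with single libraries left out, the 7 being without 82Q-2. That library was the highest of 82Q for 7 of the 9 genes. Leaving it out lowers their 82Q means, so this 7 is no separate evidence. Tested genes called in that comparison were 2562 to 3210 with single libraries left out. The count of the 9 was 7 with the choroid plexus and meninges covariate. That covariate was chosen after the data were seen and is partly confounded with group. At an adjusted p under 0.01 the tested genes called were 4060 in 82Q_M120A against WT, 1823 in 82Q against WT and 1645 in 82Q_M120A against 82Q, where the threshold of 0.05 gave 6118, 3142 and 3175. Other interferon genes called higher in 82Q_M120A against WT were 67 in the main fit. They were 49 to 80 over the alternatives that kept all libraries. The split of all tested genes into higher and lower at an adjusted p under 0.01 is not given. At that threshold of 0.01, other interferon genes were 2 lower in 82Q_M120A against WT and 9 higher in 82Q against WT. In 82Q_M120A against 82Q they were 20 higher and 2 lower. With library size as the only scaling they were 2 lower in 82Q_M120A against WT and 35 higher in 82Q against WT, and the share of calls that were higher was 68.8%, 73% and 54% in the 3 comparisons, against 51.1%, 46.2% and 54.3% with TMM factors.

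Signs turned only for differences that had not passed the test. In 82Q against WT, Irf7 was 0.05 by library size, 0 with a minimum mean of 1 CPM and 0.03 with the covariate, and -0.27 to 0.15 with single libraries left out. Irf9 was 0.03 by library size and -0.09 to 0.01 with single libraries left out. Stat2 was 0 with the covariate and -0.01 to 0.04 with single libraries left out, and Usp18 was -0.03 to 0.36. Bst2 in 82Q_M120A against WT was 0.38 with the covariate and -0.34 to 0.03 with single libraries left out, and in 82Q_M120A against 82Q it was -0.07 to 0.41. The cause was not tested. Counting error limits the least abundant genes most. No paired analysis was possible because the columns carry no replicate numbers.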

Other observations

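Promoter windows of the other lists were searched for the same response element core. It was found in 23 of 47 other effectors (48.9%) and 10 of 18 interferon gamma inducible GTPases and antigen processing genes (55.6%), against 3.99% of all genes with a window. Of the receptors, kinases and STAT proteins, 0 of 8 held it. Between these lay 3 of 13 sensors, adaptors and kinases (23.1%), 2 of 9 negative regulators (22.2%) and 1 of 7 regulatory factors (14.3%). Of the interferon ligands, 11 of 20 held it (55%). These counts were not tested.

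Some listed effectors had too few counts to be tested. Mnda had 50 counts in the 82Q_M120A libraries together, 5 in 82Q and 3 in WT. Oas1g had 41, 53 and 12 counts and Oas3 had 23, 17 and 5 counts in 82Q_M120A, 82Q and WT. The chemokine gene Cxcl9 had 28 counts in 82Q_M120A, 10 in 82Q and 5 in WT.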
